A study of Mus musculus with 10 samples.

Results

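The Dlx homeobox family of the mouse, which comprises Dlx1, Dlx2, Dlx3, Dlx4, Dlx5 and Dlx6, was examined in developing molar teeth cultured with insulin-like growth factor 1 (IGF1). The members were found by their gene symbols in the GENCODE annotation, which gave 6 genes out of the 18381 in the count table. The teeth were first lower molars of wild type C57BL/6JOlaHsd embryos at embryonic day 14, kept in hanging drop culture for 6 h. From each of 5 embryos (numbered 1, 2, 3, 4 and 6), a single tooth received recombinant mouse IGF1 at 750 ng/ml, dissolved in PBS with bovine serum albumin, and the tooth of the other side received an equal volume of that buffer. Left and right were balanced over the treatments, although the labels do not give the side of each tooth. RNA was sequenced from each tooth separately, giving 5 IGF1 and 5 control libraries, and the question was how the level of each Dlx gene differed between the teeth of an embryo. A whole tooth holds epithelium, mesenchyme, vessels and blood, so fewer cells of a type and less RNA per cell cannot be told apart.

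Dlx genes encode transcription factors that bind DNA through a homeodomain, a fold of helices whose last helix lies in the major groove. In mammals they form linked pairs, in which neighbouring genes face each other and are transcribed towards each other, often under enhancers that lie between them. Nested expression of the pairs along the jaw patterns the first pharyngeal arch, with Dlx1 and Dlx2 active in upper and lower jaw mesenchyme and Dlx5 and Dlx6 in the lower. In teeth, mice that lack both Dlx1 and Dlx2 fail to form upper molars, and DLX3 mutations in humans alter enamel and dentine.

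The part of the homeobox that encodes most of the recognition helix is shown because it is what the members share and how they differ. It covers residues 46 to 60 of the homeodomain, read from the GENCODE transcripts, 5′ to 3′, and in every member it lies in coding exon sequence of exon 3 of 3. Capitals mark the bases that differ from Dlx2, the member with the largest change with IGF1. Positions are GRCm38, chr2:71532267-71532311 (+) for Dlx1, chr2:71544877-71544921 (-) for Dlx2, chr11:95123412-95123456 (+) for Dlx3, chr11:95141422-95141466 (-) for Dlx4, chr6:6878441-6878485 (-) for Dlx5 and chr6:6867044-6867088 (+) for Dlx6.
Dlx1: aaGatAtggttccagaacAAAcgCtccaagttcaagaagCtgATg
Dlx2: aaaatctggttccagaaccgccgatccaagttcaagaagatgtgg
Dlx3: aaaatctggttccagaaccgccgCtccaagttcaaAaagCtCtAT
Dlx4: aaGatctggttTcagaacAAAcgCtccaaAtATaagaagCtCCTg
Dlx5: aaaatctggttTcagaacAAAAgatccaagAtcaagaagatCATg
Dlx6: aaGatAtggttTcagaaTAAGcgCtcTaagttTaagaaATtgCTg

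Of these 45 bases, Dlx3 differed from Dlx2 at 6, Dlx1 and Dlx5 at 9 each, Dlx4 at 13 and Dlx6 at 14. Over the 60 residues of the homeodomain, identity was higher between members of different pairs than within pairs for the closest matches. Dlx1 and Dlx6 shared 96.7% of residues, Dlx2 and Dlx5 93.3%, and Dlx2 and Dlx3 91.7%, whereas the linked genes shared 86.7% (Dlx1 and Dlx2), 80% (Dlx3 and Dlx4) and 85% (Dlx5 and Dlx6). Outside such short stretches the transcripts were distinct. Only 5 runs of 31 bases were found in more than a single member, all of them between Dlx1 and Dlx6, out of 5496 runs in Dlx1 and 2275 in Dlx6.

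RefSeq promoter windows (GRCm38.p6) were found for 2 of the 6 members, Dlx1 and Dlx2. The window of Dlx1 lies within the first exon of that gene as GENCODE annotates it, so it was not taken as upstream sequence and is not shown. The window of Dlx2 ends at the base before the GENCODE start. It is shown because Dlx2 had the largest change, as the 250 bases before the start on the strand of the gene, at chr2:71546755-71547004 (-), with capitals for matches to any of 5 motifs searched on either strand.
Dlx2: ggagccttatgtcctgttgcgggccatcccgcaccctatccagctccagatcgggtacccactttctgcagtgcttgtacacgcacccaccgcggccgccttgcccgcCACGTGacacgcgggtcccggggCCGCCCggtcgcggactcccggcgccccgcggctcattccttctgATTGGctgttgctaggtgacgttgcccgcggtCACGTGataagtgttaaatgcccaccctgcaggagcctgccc

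The motifs were the TATA box TATAAA, the CCAAT box CCAAT, the GC box GGGCGG, the E-box CACGTG and the homeodomain core TAATTA, and no matches overlapped. The Dlx2 window held the E-box 2 times, beginning 142 and 42 bases before the start, the CCAAT box at 74 and the GC box at 119, and neither TATA box nor homeodomain core. Among 32851 promoter windows of the same length, 6.02% held the E-box, 33.8% the CCAAT box, 32.7% the GC box, 12.4% the TATA box and 4.84% the homeodomain core. The window of Dlx2 was 66.4% G and C, against a median of 52.4% over all windows. These matches describe the letters in the window and not bound sites.

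Levels are given as CPM, the counts of a gene scaled to a common library total. Total counts ranged from 2845773 to 8403151 in the control teeth and from 3456634 to 8763113 in the IGF1 teeth, and both teeth of embryo 1 had the lowest totals of their group. Each embryo is a separate animal. After filtering on low counts 14504 genes were tested, all 6 Dlx genes among them. Of these, 11.5% passed an adjusted p-value of 0.05 and are termed called, with 6.72% higher and 4.76% lower in the IGF1 teeth. The 11 tested genes of a hypoxia and glycolysis list were all higher, with a median log2 difference of 1.69.

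IGF1 teeth had lower Dlx1 and Dlx2 than control teeth, and no Dlx gene was called higher. With edgeR's quasi-likelihood test, Benjamini-Hochberg adjustment and embryo as a block, 2 of 6 members were called, both lower, beside the 4.76% of all tested genes called lower. The fitted log2 difference was below 0 for all 6, although that of Dlx4 turned positive when embryo 4 was left out. The median was -0.30 against -0.0038 for all tested genes. In 2 members every IGF1 tooth lay below every control tooth, which was so for 3.03% of tested genes.

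**Figure D1:**
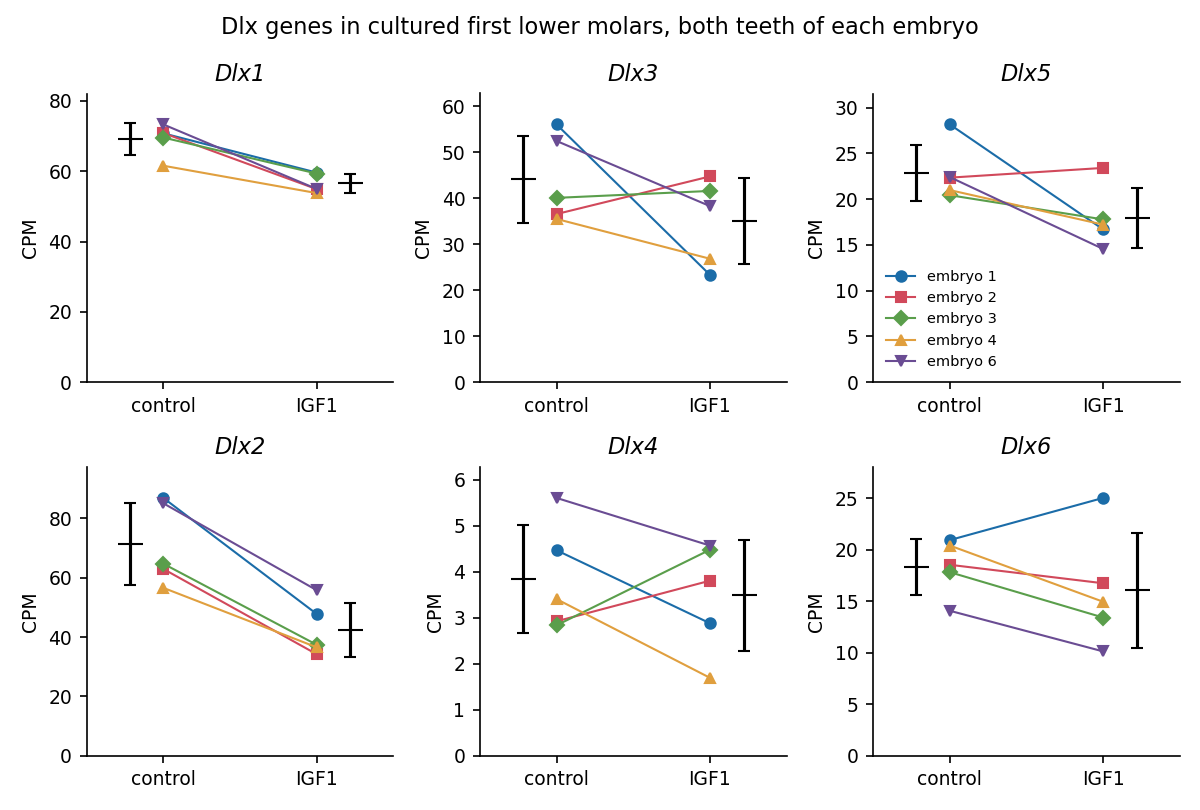
Level of each Dlx gene in CPM (vertical axes from 0) in the control and IGF1 teeth, with lines joining the teeth of an embryo and black bars for the mean and SD of 5 teeth. All lines fall for Dlx1 and Dlx2, and lines cross or differ in direction for the other members.

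Dlx2 (ENSMUSG00000023391, chr2:71543408-71546754, minus strand), which is expressed in dental epithelium as well as mesenchyme, showed the largest difference. Control teeth of embryos 1, 2, 3, 4 and 6 measured 86.9, 63.0, 64.7, 56.6 and 85.1 CPM, and the IGF1 teeth of the same embryos 47.8, 34.2, 37.4, 36.6 and 55.8 CPM. The highest IGF1 tooth, that of embryo 6, lay just below the lowest control tooth, that of embryo 4, so the groups did not overlap. Embryos 1 and 6 had the highest levels in both groups. The mean fell from 71.3 ± 13.8 to 42.4 ± 9.15 CPM (SD, n = 5), a log2 difference of -0.75 (SE 0.078, 95% interval -0.92 to -0.58), or 40.6% lower. The adjusted p-value was 0.000199, and Dlx2 ranked 23 by p-value among the 691 genes called lower. The change within embryos ran from -0.88 to -0.61 on the log2 scale, and the call held in all 11 alternative settings, with adjusted p-values from 5.07e-09 to 0.0119.

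Dlx1 (ENSMUSG00000041911, chr2:71528113-71533981, plus strand), the partner of Dlx2 in jaw mesenchyme, was lower by a smaller amount. Control teeth measured 70.8, 70.9, 69.6, 61.6 and 73.3 CPM in embryos 1, 2, 3, 4 and 6, and IGF1 teeth 59.6, 54.9, 59.3, 53.8 and 55.0 CPM. Embryo 4 was lowest in both groups, and its control tooth still lay above every IGF1 tooth. The mean fell from 69.2 ± 4.49 to 56.5 ± 2.74 CPM (SD, n = 5), a log2 difference of -0.29 (SE 0.073, 95% interval -0.45 to -0.13), lower in 5 of 5 embryos. The adjusted p-value in edgeR was 0.0258, and rank by p-value was 460 among the 691 lower genes. The call was lost with DESeq2 (adjusted p-value 0.0610) and when embryo 1, 2, 4 or 6 was left out (0.0645, 0.0713, 0.0567 and 0.0979), with log2 differences from -0.32 to -0.26.

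The marker lists moved with these differences as follows, and their part in the lower Dlx1 and Dlx2 was not tested. Of 16 mesenchymal markers 4 were lower and none higher, beside the 4.76% of all tested genes called lower, namely Pdgfra and Pdgfrb, receptors for platelet-derived growth factor (-0.53 and -0.32), the intermediate filament gene Vim (-0.42) and the repressor Zeb2 (-0.25). The list's median log2 difference was -0.12 and lay below 0 in 5 of 5 embryos, although its summed level overlapped between control (9881 to 11761 CPM) and IGF1 teeth (8846 to 11429 CPM). Its most abundant genes, Col3a1 and Postn, encoding matrix proteins, had log2 differences of -0.11 and -0.06 and were not called. Among 18 epithelial markers Krt5, a basal keratin, was higher (0.43), and Dsp, the most abundant, was at -0.01. The epithelial median was 0.07, and sums were 3283 to 4482 CPM in control and 3583 to 4793 CPM in IGF1 teeth. No marker of either list was at 0 in all teeth. Without the replicate block 1 mesenchymal marker was called and no epithelial, erythroid, endothelial, macrophage or neural marker.

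In the enamel knot, the epithelial signalling centre, 9 marker genes were tested and 2 called, beside the 11.5% of all tested genes, with Shh, a secreted signal, lower (-1.31, adjusted p-value 0.000645) and Slit1 higher (0.94, adjusted p-value 0.0228). Their median was -0.75, with sums of 80.7 to 124 CPM in control and 65.8 to 120 CPM in IGF1 teeth. An unadjusted p-value under 0.05 was reached by 6 of the 9 genes. Dkk4, at -2.48, was called by limma-voom but not by edgeR or DESeq2, and Cdkn1a was at 0.37 and not called. Of the other cell types in a dissected tooth, beside 4.76% of all tested genes called lower and 6.72% higher, 4 of 5 tested erythroid genes were lower (Hba-a1 -0.56, Hbb-bt -0.52, Hbb-bs -0.46 and Hba-a2 -0.39). So were 1 of 6 endothelial genes (Cdh5, -0.38, with Kdr at -0.13) and 1 of 4 macrophage genes (Csf1r, -0.44, not called by DESeq2, with Adgre1 at 0.03). Among neural genes Tubb3 was higher (0.70). No skeletal gene of 4 and no muscle gene of 1 was called by edgeR, DESeq2 or limma-voom, with 0 at an unadjusted p-value under 0.05 in either list. Sp7 and Ibsp were at -0.10 and -0.26, and Myh3 at -0.58.

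Dlx3 (ENSMUSG00000001510, chr11:95120119-95125296, plus strand), a regulator of epidermis, hair and mineralised tooth tissue, varied between embryos more than between groups. Control teeth measured 56.0, 36.5, 40.0, 35.5 and 52.4 CPM in embryos 1, 2, 3, 4 and 6, and IGF1 teeth 23.3, 44.7, 41.5, 26.8 and 38.3 CPM. The groups overlapped widely, and embryo 1 had both the highest control and the lowest IGF1 tooth. The log2 difference was -0.30 (SE 0.17, 95% interval -0.68 to 0.07, adjusted p-value 0.295), with 3 of 5 embryos lower. With an embryo left out it ran from -0.46 (without embryo 2) to -0.12 (without embryo 1, whose own change was -1.25).

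Dlx4 (ENSMUSG00000020871, chr11:95140447-95146263, minus strand) had the fewest counts of the members, 10 to 39 per tooth. Control teeth measured 4.47, 2.92, 2.83, 3.40 and 5.60 CPM, and IGF1 teeth 2.88, 3.80, 4.48, 1.69 and 4.57 CPM. The log2 difference of -0.11 (SE 0.29, 95% interval -0.75 to 0.53, adjusted p-value 0.852) did not pass the test, with 3 of 5 embryos lower and overlapping groups. It was -0.02 without embryo 1, -0.25 without embryo 2, -0.34 without embryo 3, 0.08 without embryo 4 and -0.06 without embryo 6. The control teeth of embryos 1 and 6 were the highest for Dlx2, Dlx3 and Dlx4 alike.

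Dlx5 (ENSMUSG00000029755, chr6:6877805-6882085, minus strand), which acts in lower jaw identity and osteoblasts, measured 28.2, 22.4, 20.4, 21.0 and 22.4 CPM in the control teeth of embryos 1, 2, 3, 4 and 6. The IGF1 teeth measured 16.7, 23.4, 17.8, 17.2 and 14.6 CPM. All IGF1 teeth but that of embryo 2 lay below every control tooth. The log2 difference was -0.33 (SE 0.13, 95% interval -0.62 to -0.04), lower in 4 of 5 embryos. It did not pass the adjustment over all genes in edgeR, with a p-value of 0.0286 before and 0.134 after it.

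Dlx6 (ENSMUSG00000029754, chr6:6863334-6868568, plus strand), which acts with Dlx5 in the lower jaw, measured 21.0, 18.6, 17.8, 20.4 and 14.1 CPM in the control teeth and 25.1, 16.8, 13.4, 15.0 and 10.1 CPM in the IGF1 teeth. Embryo 6 was lowest in both groups, and embryo 1 was highest in both. The log2 difference was -0.26 (SE 0.13, 95% interval -0.55 to 0.04, adjusted p-value 0.260). It was lower in 4 of 5 embryos, with embryo 1 moving up by 0.24, and was -0.37 without that embryo.

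**Figure D2:**
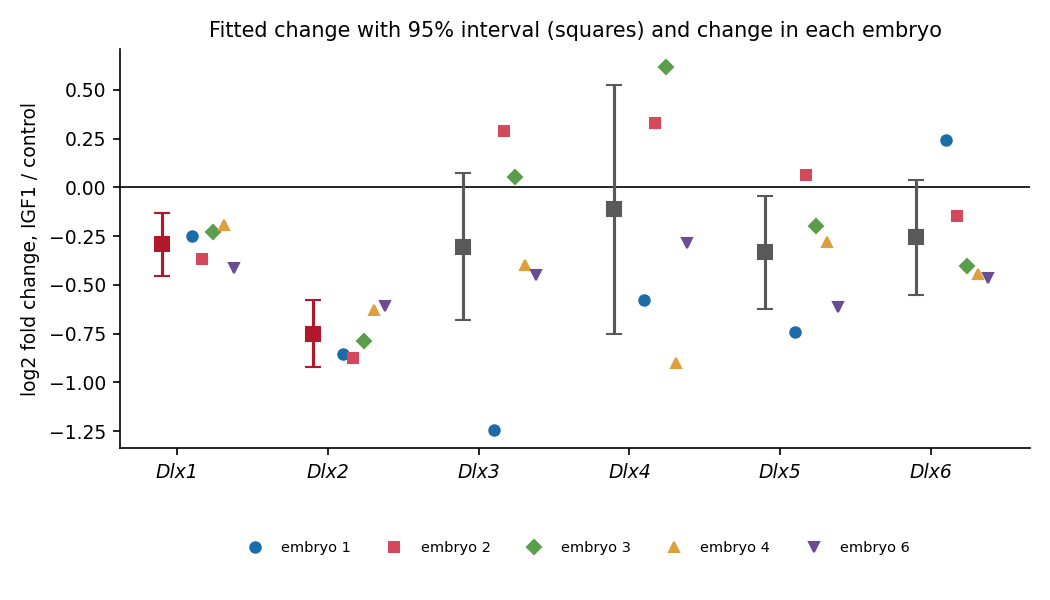
Log2 fold change of each Dlx gene, IGF1 over control, as fitted by edgeR with its 95% interval (squares, red where called) and in each embryo (coloured symbols). The 5 embryos sit together below 0 for Dlx1 (-0.41 to -0.19) and Dlx2 (-0.88 to -0.61), while for Dlx4 they spread from -0.90 to 0.62.

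Levels between members were compared as CPM per kb of merged exons. In the control teeth Dlx2 was highest at 25.0 ± 4.84, followed by Dlx3 at 16.9 ± 3.63, Dlx1 at 12.8 ± 0.832, Dlx5 at 10.1 ± 1.36, Dlx6 at 7.74 ± 1.15 and Dlx4 at 1.18 ± 0.360 (SD, n = 5). Each of these was above the next in 5 of 5 control teeth, although the ranges of Dlx2 and Dlx3 overlapped, as did those of Dlx1 and Dlx5. In the IGF1 teeth Dlx2 came to 14.8 ± 3.21 and Dlx3 to 13.4 ± 3.59, with Dlx2 above Dlx3 in 3 of 5 teeth. With the longest coding transcript as the length, Dlx3, Dlx1 and Dlx5 had control means of 16.9, 16.8 and 16.1 CPM per kb. The order of the means was the same, but the ranges of Dlx3 and Dlx1 then overlapped, and Dlx3 was above Dlx1 in 2 of 5 control teeth.

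**Figure D3:**
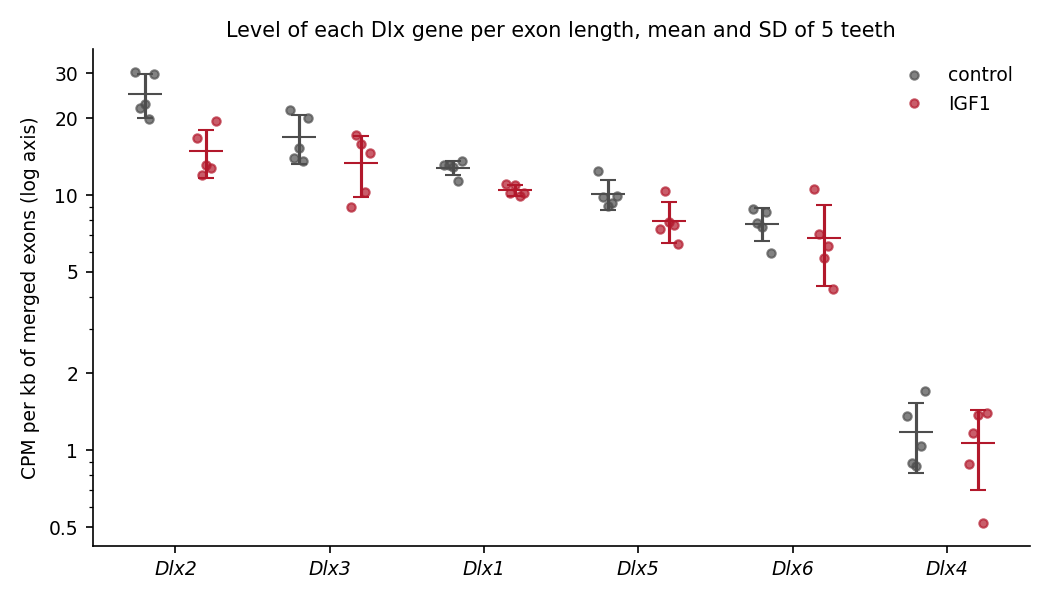
Level per kb of merged exons on a log axis, in control (grey) and IGF1 teeth (red), with points for teeth and bars for the mean and SD of 5. Dlx2 is highest in control teeth at 25.0 CPM per kb, and Dlx4 is lowest at 1.18.

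The linked pairs were then compared by the log2 ratio of their genes within each tooth, which does not depend on the total count. The Dlx1/Dlx2 ratio was -0.29, 0.17, 0.10, 0.12 and -0.21 in the control teeth of embryos 1, 2, 3, 4 and 6, and 0.32, 0.68, 0.66, 0.55 and -0.02 in the IGF1 teeth. It was higher with IGF1 in 5 of 5 embryos, by 0.46 on average (SD 0.16), so the fall of Dlx2 exceeded that of Dlx1 in each embryo, although the IGF1 tooth of embryo 6 lay within the control range. The exact sign-flip permutation p-value, taken on both sides, was 0.0625, the smallest that 5 embryos allow, and 0.188 after adjustment over the 3 pairs, so this paired test could not reach 0.05. An exact permutation of the 10 teeth without pairing gave an adjusted p-value of 0.0952.

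The Dlx3/Dlx4 ratio differed by -0.19 (SD of differences 0.47, n = 5 embryos, exact permutation p = 0.312, adjusted 0.469), higher in 1 of 5 embryos. It was -0.07 without embryo 1, -0.09 without embryo 3 and -0.36 without embryo 4. The Dlx5/Dlx6 ratio differed by -0.11 (SD 0.51, n = 5, exact permutation p = 0.938, adjusted 0.938), higher in 3 of 5 embryos. In the latter pair the change of embryo 1, from 0.42 to -0.57, stood against small changes in the rest, and without it the mean difference was 0.11. In neither pair was the difference larger than the spread between embryos.

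**Figure D4:**
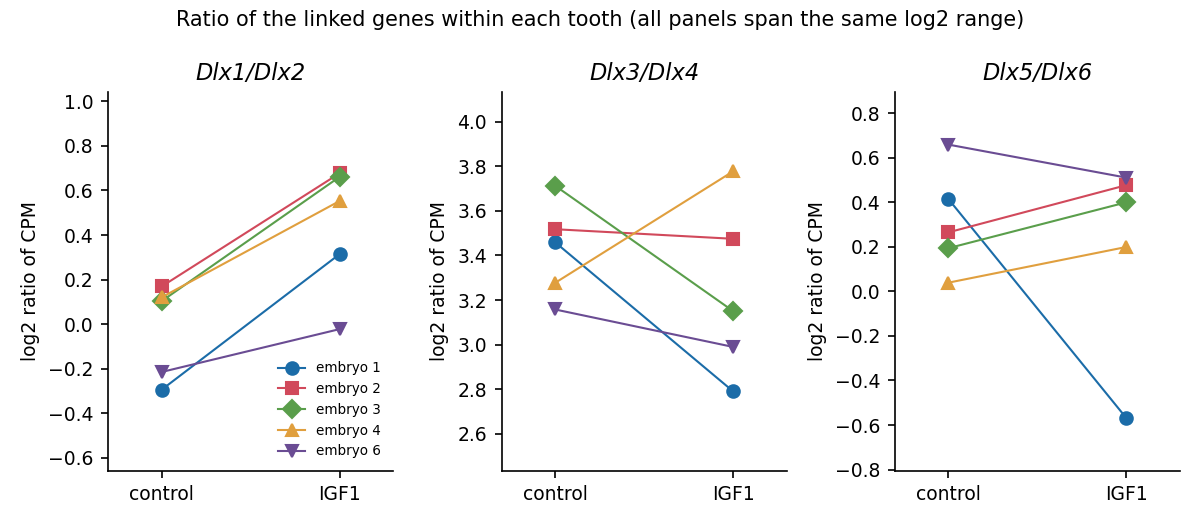
Log2 ratio of the genes of each linked pair within each tooth, with lines joining the teeth of an embryo and the same log2 span on each vertical axis. The Dlx1/Dlx2 lines all rise, by 0.46 on average, while the Dlx5/Dlx6 line of embryo 1 falls from 0.42 to -0.57.

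The 5′ ends of the linked genes are 18641 bases apart for Dlx1 and Dlx2, 26144 for Dlx3 and Dlx4, and 18751 for Dlx5 and Dlx6. Protein coding genes starting within 500 kb of either gene of a pair numbered 33, of which 27 were tested and 5 called in edgeR, 3 higher and 2 lower, beside the 11.5% of all tested genes called, with a median log2 difference of -0.03. Around Dlx1 and Dlx2, 1 of 10 was called. This was Pdk1, a kinase that holds back pyruvate oxidation and a member of the hypoxia list, which was higher by 1.34 (adjusted p-value 0.00446) and so moved against the Dlx genes. The nearest tested genes on each side, Metap1d, a mitochondrial aminopeptidase, and Itga6, an integrin of epithelial cells, were at -0.26 and -0.14 and not called.

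Around Dlx3 and Dlx4, 4 of 15 tested genes were called, beside the 11.5% of all tested genes. Slc35b1, a nucleotide transporter of the endoplasmic reticulum, and Lrrc59 were higher (0.65 and 0.57), and Pdk2, a relative of Pdk1, and Ngfr, a neurotrophin receptor, were lower (-0.55 and -0.48). The nearest tested genes on each side, Itga3 and Kat7, were at -0.26 and 0.02 and not called. Around Dlx5 and Dlx6 only Sem1 and Sdhaf3 were tested (0.11 and -0.03), and neither was called by edgeR, DESeq2 or limma-voom, with 0 at an unadjusted p-value under 0.05.

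**Figure D5:**
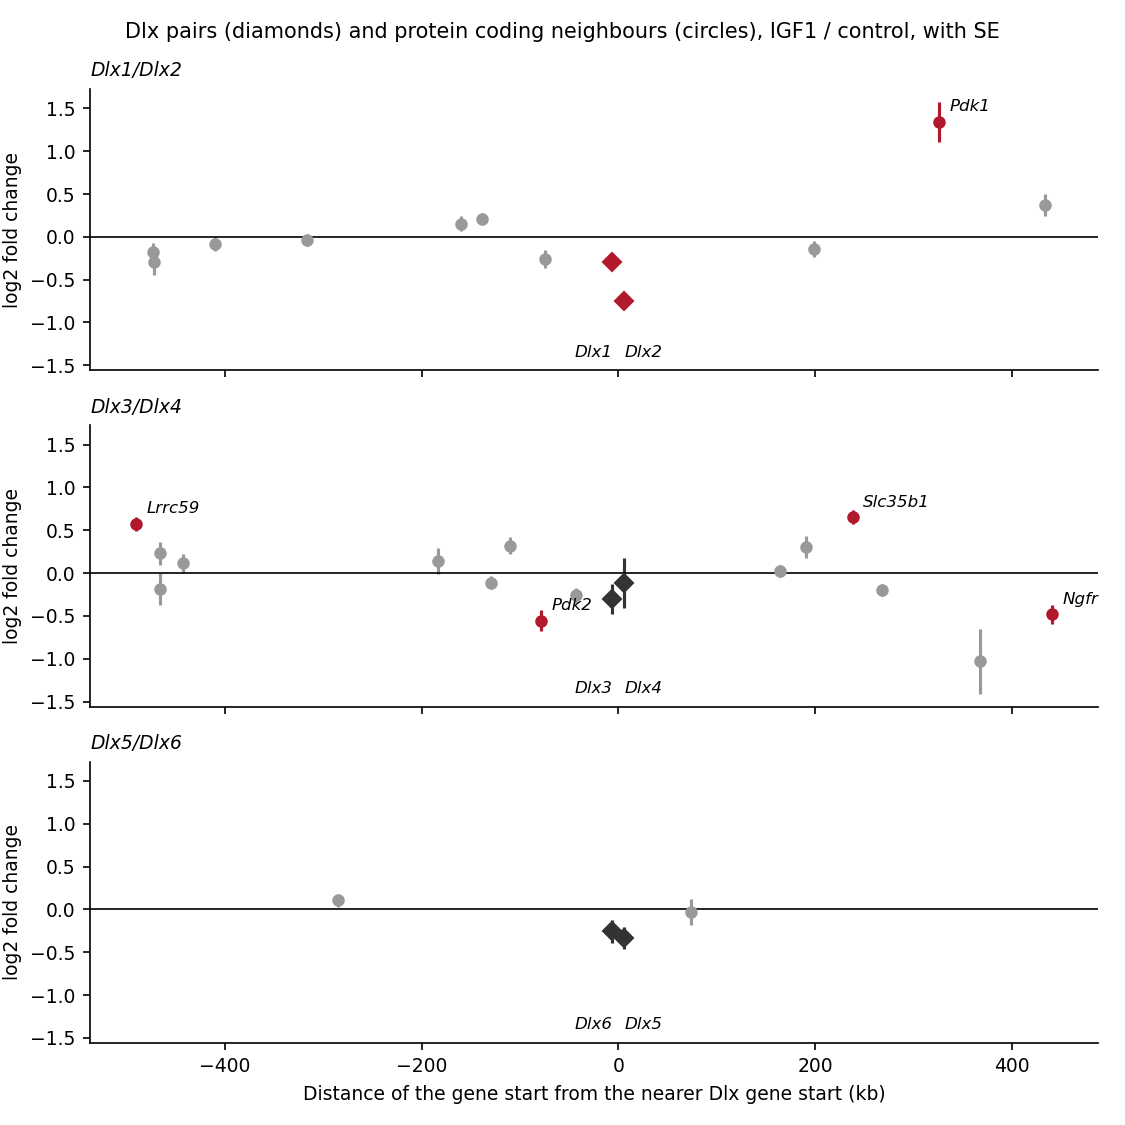
Log2 fold change with SE of tested protein coding neighbours (circles) and of the Dlx genes (diamonds, set slightly apart at 0) against the distance of their 5′ ends from the nearer Dlx gene, in kb. Red marks called genes. Around Dlx1 and Dlx2 the called neighbour, Pdk1, lies at 1.34, on the other side of 0 from the Dlx genes.

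Genes linked to Dlx function by earlier work were counted by role. Of 8 tested genes placed upstream of Dlx expression (the signal Bmp4, the endothelin pathway genes Ednra, Ece1, Plcb3 and Mef2c, and the transcription factors Trp63, Tfap2a and Tfap2b), 1 was called, beside the 11.5% of all tested genes. This was Ece1, the endothelin-converting enzyme, which was lower by a small amount (-0.21, SE 0.061, adjusted p-value 0.0464), and no gene of the list was called without the replicate block. Ece1 was also called by limma-voom but not by DESeq2, which called Tfap2b instead (-0.29, adjusted p-value 0.0765 in edgeR). The list's median was -0.15. None of 5 Dlx targets of the jaw was called by edgeR, DESeq2 or limma-voom, with 1 at an unadjusted p-value under 0.05. The median was -0.12, and the most abundant, the homeobox gene Pitx1 and the signal Bmp7, were at -0.01 and -0.12. Hand2 was not analysed here.

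None of 7 tested bone and enamel targets was called by any of the 3 tests, beside 11.5% of all tested genes in edgeR. An unadjusted p-value under 0.05 was reached by 2 of them, and their median was -0.19. Runx2, a regulator of bone and tooth mesenchyme, was at -0.19, and Spp1, encoding a matrix protein, was at -0.46. Of 5 genes for proteins that bind Dlx proteins none was called by any of the tests, beside the same 11.5%. Among these, 1 was at an unadjusted p-value under 0.05, and the median was 0.11. Maged1 was at 0.16 and the homeobox gene Msx1 at -0.12.

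Other homeobox genes of the tooth were used as the class most like the Dlx family. None of 12 was called in edgeR, beside the 11.5% of all tested genes, with 2 at an unadjusted p-value under 0.05. Barx1, a homeobox gene of molar mesenchyme, was called by both DESeq2 and limma-voom. Named after its values were seen, it had a log2 difference of -0.28 (adjusted p-value 0.0510 in edgeR), lower in 5 of 5 embryos, close to the -0.29 of Dlx1. Their median was -0.09, against -0.30 for the Dlx genes, and the difference between these lists was not tested. Prrx1 and Msx1, the most abundant, were at -0.07 and -0.12.

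The genes most like each member were ranked by Pearson's r of log2 CPM over all 10 teeth, which come from 5 embryos and include the treatment, so the values are descriptions only. For Dlx2 they were Gatb (0.970), Meaf6 (0.968) and Shh (0.960), and for Dlx1 Tmprss11a (0.973), Klf11 (0.963) and Selenop (0.958). For Dlx3 they were Fcrl6 (0.941), Zfp410 (0.926) and Tmprss11d (0.899), and for Dlx4 Ank3 (0.968), AC137605.4 (0.921) and Tamm41 (0.888). For Dlx5 they were Tmbim4 (0.928), Zadh2 (0.920) and Mmp23 (0.918), and for Dlx6 Sirt2 (0.954), Myh3 (0.950) and Hba-a2 (0.949). By the same measure the linked genes stood at 0.859 for Dlx1 and Dlx2, 0.734 for Dlx3 and Dlx4 and 0.481 for Dlx5 and Dlx6.

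Antisense genes overlap exons of Dlx1 (6.21% of its merged exon length, by Dlx1as), Dlx4 (2.42%, by Dlx4os) and Dlx6 (4.38%, by Dlx6os2). These genes and Dlx6os1 were not analysed here. Whether counting used strand is not given in the sources used here, so reads of the overlapping stretches cannot be told apart.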

How the data were processed

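First lower molars of 5 mouse embryos, an IGF1 and a control tooth from each, were measured by RNA sequencing. The authors deposited estimated counts per gene (expected counts, whole numbers, not normalized), and their processing notes name FastQC 0.11.8, Trimmomatic 0.39, Salmon 0.99.0, DESeq2 and GRCm38. The transcript set and the filter on genes are not given in the sources used here. The smallest total of a gene was 10. Of 18381 identifiers 18287 were matched in GENCODE release M21 and 94 were not. The accompanying paper does not describe this experiment.

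Counts were tested with edgeR 4.0.16 (quasi-likelihood, TMM, filterByExpr, embryo as block, Benjamini-Hochberg over all tested genes, called under 0.05) in R 4.3.3. The block was used because the labels draw both teeth of a number from 1 embryo. Deviations correlated at 0.319, 0.208, -0.0389, 0.170 and 0.313 in embryos 1, 2, 3, 4 and 6, with a median of -0.0463 for teeth of different embryos. CPM used TMM library sizes, and log2 CPM a prior count of 2. The ratio of linked genes was tested by exact sign flips over embryos. Alternatives were no block, DESeq2 1.42.0, limma-voom (limma 3.58.1), other size factors and filters, each embryo left out, a prior count of 0.5, a window of 1 Mb and another gene length.

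The teeth of a group differed by a chi-square per degree of freedom from 4.68 up to 19.4, and none were merged. Totals ran from 2845773 to 8763113 counts. The genes named are the 6 members, their called and nearest tested neighbours, up to 4 called or else the 2 most abundant genes of each list, with the 2 most abundant also named in marker lists, and the 3 genes most like each member. Of the hypoxia list the count and median are given, with Pdk1 as a neighbour, and some marker results that fall under the rule are not reported here. Members and lists were chosen with earlier results of these data known.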

Additional observations from a re-analysis of the deposited data

Results flagged for a closer look

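Among 24 groups of 5 teeth examined for a tooth far from the rest, 2 held such a tooth, where chance would give 1.2. In the control teeth Dlx5 was at 28.2 CPM in embryo 1, against 20.4 to 22.4 CPM in the others, and this gap took up 0.744 of the group's range, past Dixon's critical value for 5 values at 95%. In the IGF1 teeth the log2 ratio of Dlx5 to Dlx6 was -0.57 in embryo 1, against 0.20 to 0.51 in the others, a gap of 0.712 of the range. Both teeth are from embryo 1, whose libraries had the lowest totals, and the part of depth in these values was not tested.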

How the results depend on the processing

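Dlx2 was lower and called in all 11 alternatives. The log2 difference of Dlx1 was -0.29 with DESeq2, where the call was lost, and ran from -0.32 to -0.26 with an embryo left out, where it held only without embryo 3. With DESeq2 1 Dlx gene was called, and 1 to 2 with an embryo left out. The log2 difference of Dlx4 ran from -0.34 to 0.08 with an embryo left out and turned positive (0.0799) without embryo 4, and that of the Dlx5/Dlx6 ratio ran from -0.19 to 0.11 and turned positive (0.11) without embryo 1. The other members kept their sign in every alternative and were called in none. Without the replicate block 887 genes were called in place of 1666, and with an embryo left out 986 to 1602, the lowest without embryo 4 (986) and embryo 6 (994). Dropping the block left Dlx1 and Dlx2 called (adjusted p-values 0.0469 and 0.0119), and 3 neighbours were then called in place of 5. Likewise 0 genes were called in the lists of upstream, epithelial, endothelial, macrophage, erythroid and neural genes, and 1 in the mesenchymal list. A window of 1 Mb held 11 called neighbours among 54 tested, beside the 11.5% of all tested genes called. Of these 11 neighbours 2 were lower and the rest higher, beside 4.76% of all tested genes called lower and 6.72% higher. With the longest coding transcript as the length, control levels moved to 16.8 CPM per kb for Dlx1, 1.69 for Dlx4 and 16.1 for Dlx5. Causes of these shifts were not tested, other than fewer samples or a wider window where the alternative itself brings them.

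With 5 embryos, differences such as that of Dlx5 fell short after adjustment over all genes, and the interval of Dlx4, which had 10 to 39 counts per tooth, spans both directions. Treatment differences are from a single dose and time.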
